A study of Mus musculus with 2 samples.

Results

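Metallothioneins are short, cysteine-rich proteins that bind zinc and copper. The 3 genes described here, Mt1, Mt2 and Mt3, were matched by symbol among the 28693 genes measured in dispersed cells of the mouse pituitary gland. They were chosen by their measured values, namely the levels by cell class, the spread between cells and the relation to immediate early genes in these same data, so their levels by cell class and their relation to immediate early genes are given as descriptions with no test. The glands came from male C57BL/6 mice aged 7 weeks with no other genotype, agent or treatment named, and 2 pools of 3 glands gave 1 droplet library each, library 1 and library 2. The tissue was digested for 4 h before capture, so every value describes dissociated cells. The pool is the replicate throughout (n = 2), and all comparisons are between cell classes, or between cells of a class, within the same glands.

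Mt1 and Mt2 are made in most tissues and are switched on by zinc and cadmium through the transcription factor MTF1, and also by glucocorticoids and by several kinds of stress. Their proteins buffer zinc and copper and react with oxidants. Mt3 is known from neurons and other neural cells, answers poorly to metals and stress, and was first described as a growth inhibitory factor of the brain. Immediate early genes, such as Fos, Jun, Egr1 and Atf3, are transcribed within minutes of a stimulus without new protein synthesis, and tissue digestion is a known stimulus.

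The 3 genes lie on the + strand of chromosome 8 in 1 cluster with Mt4, a gene known from stratified epithelium that is not described here. In the GENCODE annotation of the assembly GRCm38, Mt3 spans chr8:94152607-94154146, Mt2 chr8:94172664-94173568 and Mt1 chr8:94179082-94180327. Mt2 and Mt1 are 5513 bases apart, and 18517 bases separate Mt3 from Mt2. Each main transcript has 3 exons, and the coding parts hold 61 codons in Mt1 and Mt2 and 68 in Mt3. All 3 genes matched a RefSeq entry of GRCm38.p6. The 250 bases before each RefSeq start are shown because Mt1 and Mt2 followed each other across cells whereas Mt3 did not. Capitals mark matches to the core of the metal response element, TGCACNC or TGCGCNC, searched on both strands, and each sequence runs 5′ to 3′ on the + strand. The windows are chr8:94178839-94179088 for Mt1, chr8:94172368-94172617 for Mt2 and chr8:94152357-94152606 for Mt3. RefSeq and GENCODE starts differ: the Mt1 window runs past the GENCODE start, and the Mt2 window ends short of it.
Mt1: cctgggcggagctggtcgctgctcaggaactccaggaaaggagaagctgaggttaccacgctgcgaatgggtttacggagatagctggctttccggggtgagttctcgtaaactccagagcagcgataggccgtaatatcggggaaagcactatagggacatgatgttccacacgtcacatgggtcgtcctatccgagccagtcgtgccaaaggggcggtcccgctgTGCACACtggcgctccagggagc
Mt2: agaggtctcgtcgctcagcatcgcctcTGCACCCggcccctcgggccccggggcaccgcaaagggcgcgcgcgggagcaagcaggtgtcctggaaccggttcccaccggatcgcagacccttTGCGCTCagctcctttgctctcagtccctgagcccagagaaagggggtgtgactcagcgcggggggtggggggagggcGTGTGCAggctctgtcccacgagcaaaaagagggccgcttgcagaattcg
Mt3: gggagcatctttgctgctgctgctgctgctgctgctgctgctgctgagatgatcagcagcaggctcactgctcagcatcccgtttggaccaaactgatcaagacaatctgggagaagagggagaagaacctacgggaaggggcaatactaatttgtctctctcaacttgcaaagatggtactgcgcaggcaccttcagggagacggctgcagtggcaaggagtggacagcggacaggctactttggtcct

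These windows hold 1 metal element core in Mt1, 3 in Mt2 and 0 in Mt3. Of 27025 RefSeq windows of the same length, 21.3% held at least 1 and 1.28% at least 3. The count depends on where the start is placed. Over 250 bases before to 50 after the RefSeq start there were 3 matches in Mt1, 4 in Mt2 and 1 in Mt3. The GENCODE leader of the main transcript, from its first base to the start codon, held 4, 3 and 3. GENCODE gives further transcripts that begin 129 and 159 bases after the first start of Mt1, 196 bases after that of Mt2 and 139 bases after that of Mt3, so matches downstream of a first start can lie before another one. The AP-1 site TGANTCA, bound by Fos and Jun proteins, occurred 1 time in the Mt2 window and not in the others, against 6.87% of all windows. The antioxidant element core TGANNNNGC occurred 1 time in Mt2, where it overlaps the AP-1 match, and 2 times in Mt3, against 35.1% of all windows. The cAMP response element TGACGTCA and the E-box CACGTG occurred in none of these 3 windows, against 1.62% and 6.05% of all windows. A match is a run of letters and no measured site.

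After filters, 6011 cells of library 1 and 6523 of library 2 were used, and 54 barcode sequences occurred in both libraries. Clustering on 100 marker genes, with no metallothionein and no immediate early gene among them, gave 11 classes named from their markers. They held between 20 and 3392 cells in library 1 and between 38 and 3389 in library 2, and 189 and 203 cells stayed unnamed. Somatotrope-like cells, which make growth hormone, also held cells with the thyrotropin gene Tshb and 1 cluster of 114 cells led by the lymphocyte genes Cd79a and Ccl5. Before any filter, all barcodes together held 50145 and 70790 UMIs of Mt1, 16579 and 23086 of Mt2, and 3265 and 4604 of Mt3 in the 2 libraries. A UMI is a unique tag that counts a captured transcript once. Intervals on shares of cells are exact binomial at 95% and cover counting error only.

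Mt1 was highest in corticotrope-like cells, which make the ACTH precursor, and in stem-like cells of the gland. Levels are in CPM, computed from the summed UMIs of each class and library with TMM scaling factors. Corticotrope-like cells had 4053 CPM in library 1 and 6901 in library 2, and stem-like cells 2583 and 3988. The libraries of these 2 classes did not overlap with each other or with any class below them. The next 5 classes had ranges that overlapped their neighbours: pituicyte-like cells of the posterior lobe had 1490 and 1832 CPM, macrophage-like cells 1087 and 1672, melanotrope-like cells of the intermediate lobe 1172 and 1209, gonadotrope-like cells 1079 and 1224, and somatotrope-like cells 1010 and 1241. Pituicyte-like cells lay above melanotrope-like, gonadotrope-like and somatotrope-like cells with no overlap. The rest of their order is not resolved. Fibroblast-like cells differed 3.33-fold between libraries, 409 CPM against 1361, and so overlapped most of that group. Cycling cells had 786 and 797 CPM, and lactotrope-like cells, which make prolactin, 315 and 378. Endothelial-like cells were lowest with 157 and 81.0 CPM. From the lowest class mean to the highest, Mt1 went from 119 ± 53.4 CPM to 5477 ± 2014 CPM (SD, n = 2). Library 2 was the higher one in 10 of 11 classes, by up to 1.70-fold outside fibroblast-like cells, and endothelial-like cells were the exception.

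**Figure D1:**
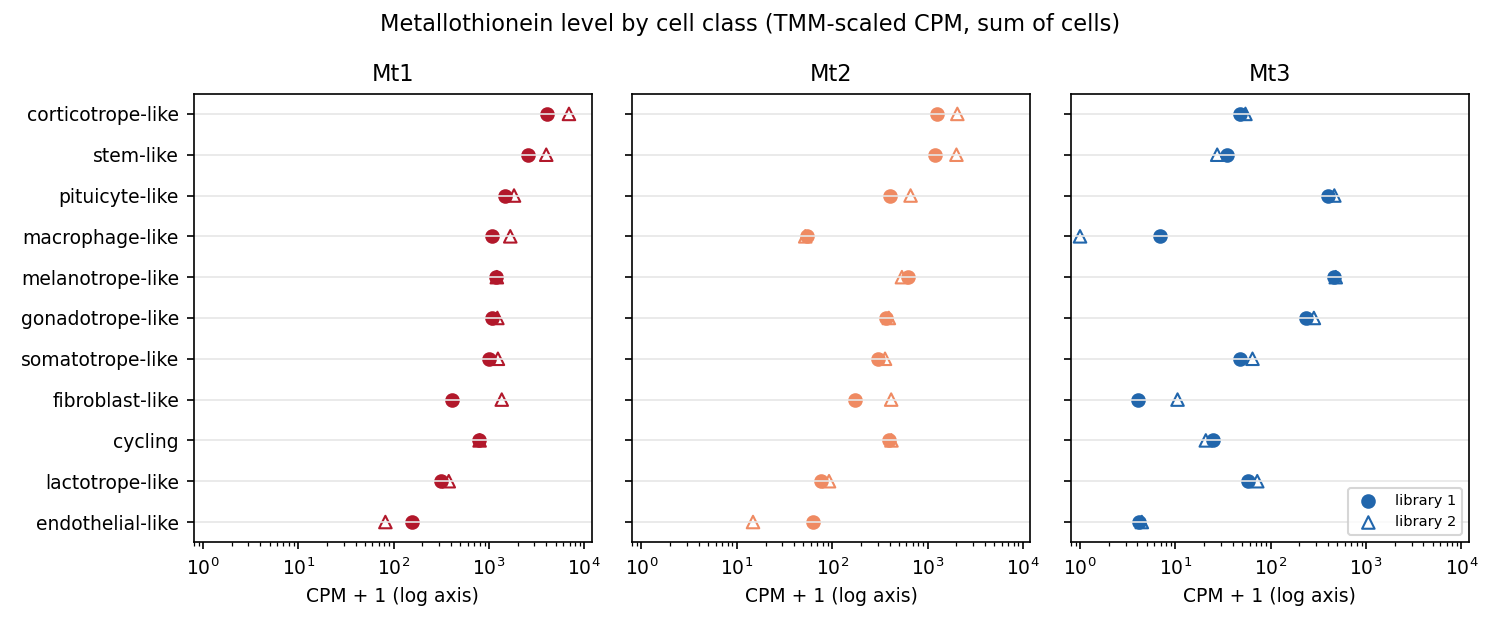
Levels of Mt1, Mt2 and Mt3 in 11 cell classes, as TMM-scaled CPM plus 1 on a log axis, with a filled circle for library 1 and an open triangle for library 2. Mt1 and Mt2 lead in corticotrope-like and stem-like cells, and Mt3 leads in melanotrope-like, pituicyte-like and gonadotrope-like cells.

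Mt2 shared the leading classes with Mt1. It had 1259 and 2054 CPM in corticotrope-like cells and 1204 and 2010 CPM in stem-like cells, which overlap, and both classes stood above the rest. Melanotrope-like cells followed with 622 and 538 CPM, pituicyte-like cells with 406 and 663, cycling cells with 391 and 418 and gonadotrope-like cells with 368 and 392, each overlapping the next. Somatotrope-like cells had 298 and 358 CPM, fibroblast-like cells 171 and 415, and lactotrope-like cells 75.2 and 91.7. Macrophage-like cells, in the middle group for Mt1, had only 53.2 and 51.2 CPM of Mt2, close to the 61.7 and 13.8 of endothelial-like cells.

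The ratio of Mt1 to Mt2 UMIs set macrophage-like cells apart. It was 20.4 in library 1 and 32.7 in library 2 there, and between 1.89 and 5.88 in the 20 other class and library sums. The macrophage-like ratio rests on 9 and 12 Mt2 UMIs, against 184 and 392 of Mt1. In the classes with many UMIs the ratio repeated closely between libraries, with 3.22 and 3.36 in corticotrope-like cells, 3.39 and 3.47 in somatotrope-like cells, 4.19 and 4.12 in lactotrope-like cells and 2.14 and 1.98 in stem-like cells. It is compared here between classes and is no measure of one gene's level over the other's. The longest run of bases shared by the transcripts was 20 between Mt1 and Mt2, 27 between Mt1 and Mt3 and 20 between Mt2 and Mt3, and the sources used here do not say how reads that fit more than 1 gene were handled.

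Mt3 had another order of classes. Melanotrope-like cells had 465 and 480 CPM, pituicyte-like cells 401 and 464, and gonadotrope-like cells 236 and 283, with no overlap between these neighbours, although the first 2 came within 1 CPM of each other. Lactotrope-like cells had 57.1 and 71.3 CPM, somatotrope-like cells 46.9 and 63.4 and corticotrope-like cells 46.5 and 53.3, where each overlapped the next but lactotrope-like and corticotrope-like cells did not overlap. Stem-like cells had 33.8 and 26.5 CPM and cycling cells 23.7 and 19.8. Fibroblast-like, endothelial-like and macrophage-like cells had between 0 and 9.54 CPM, which rest on 0 to 4 UMIs per library. The lead of melanotrope-like over pituicyte-like cells did not hold under another scaling. On UMIs outside the hormone genes, pituicyte-like cells had 671 and 697 CPM and melanotrope-like cells 656 and 676, which overlap.

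The share of cells with at least 1 Mt3 UMI followed the same division. It was 83.0% of melanotrope-like cells in library 1 (interval 74.5 to 89.6%) and 83.2% in library 2 (75.7 to 89.2%), at a median depth of 4170 and 4346 UMIs outside the hormone genes. In corticotrope-like cells at 4253 and 4062 UMIs it was 23.6% (18.04 to 29.9%) and 23.8% (18.6 to 29.6%). In endothelial-like cells, set beside them as a class with hardly any Mt3, it was 2.44% (0.506 to 6.96%) at 4659 UMIs and 2.67% (0.731 to 6.69%) at 4398. Macrophage-like cells had 0 of 71 cells with a UMI in library 2, which allows a share of up to 4.23%, taken as 3 counts of the total, or 5.06% by the exact interval. For Mt1 the lowest shares were those of endothelial-like cells, 29.3% and 30.7%. Stem-like cells had Mt1 in 99.3% and 100% of cells, at a depth of 9029 and 9143 UMIs.

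Across the 22 class and library sums, log2 levels of Mt1 and Mt2 had a Pearson r of 0.84 (Spearman rho 0.73). Mt1 and Mt2 together against Mt3 had 0.36 (rho 0.38). The sums share 2 libraries and their depths, so these values are descriptions.

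Mt1 UMIs per cell spanned a wide range in the classes that led in level. A higher mean by itself widens such a range. Relative to the mean, somatotrope-like cells varied more than corticotrope-like cells, as given below. Each cell was thinned to 1500 UMIs outside 7 hormone genes so that depth and hormone load did not enter. Corticotrope-like cells then had a median of 3 Mt1 UMIs in library 1 and 6 in library 2, with quartiles of 1 and 13 and of 1 and 22, and a highest cell of 102 and 136. Their mean was 9.46 ± 16.2 and 15.9 ± 22.3 (SD over 211 and 248 cells). The 10% of cells with the most Mt1 held 50.8% and 44.5% of these UMIs. Stem-like cells had a median of 4 in both libraries, quartiles of 2 and 8 in both, and a highest cell of 72 and 168. Their top 10% held 43.5% and 60.1%. Nearly every stem-like cell thus had some Mt1, with 94.7% and 95.7% above 0 after thinning, whereas 80.6% and 84.7% of corticotrope-like cells did.

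Somatotrope-like cells combined a low typical level with rare very high cells. Their median was 1 Mt1 UMI in both libraries, their mean 2.07 and 2.51, and their highest cell 94 and 63. The squared coefficient of variation in excess of counting noise (excess CV²) was 5.33 and 4.07 for Mt1, and 13 of 1144 and 14 of 1128 genes of this class had a larger one. In lactotrope-like cells it was 2.40 and 3.24, exceeded by 8 of 1100 and 5 of 1120 genes, at a median of 0 UMIs. In corticotrope-like cells it was 2.84 and 1.90, exceeded by 28 of 1138 and 51 of 1127. Gonadotrope-like cells were the most even hormone class for Mt1, with 0.782 and 0.485 at a median of 2 UMIs and a highest cell of 19 and 11. The median gene had between 0.0567 and 0.113 in these 4 hormone classes.

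Whether Mt3 or Mt1 was the more even gene depended on the class. In melanotrope-like cells the excess CV² of Mt3 was 0.0866 and 0.747, against 1.54 and 1.42 for Mt1. In gonadotrope-like cells the order was the other way, with 1.71 and 0.627 for Mt3 against 0.782 and 0.485 for Mt1. In pituicyte-like cells it was 0.483 and 0.137 for Mt3, and 0.173 and 4.94 for Mt1, so the libraries differ in their order. The value of 4.94 rests on 1 cell with 64 Mt1 UMIs among 38 cells with a median of 2.

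**Figure D2:**
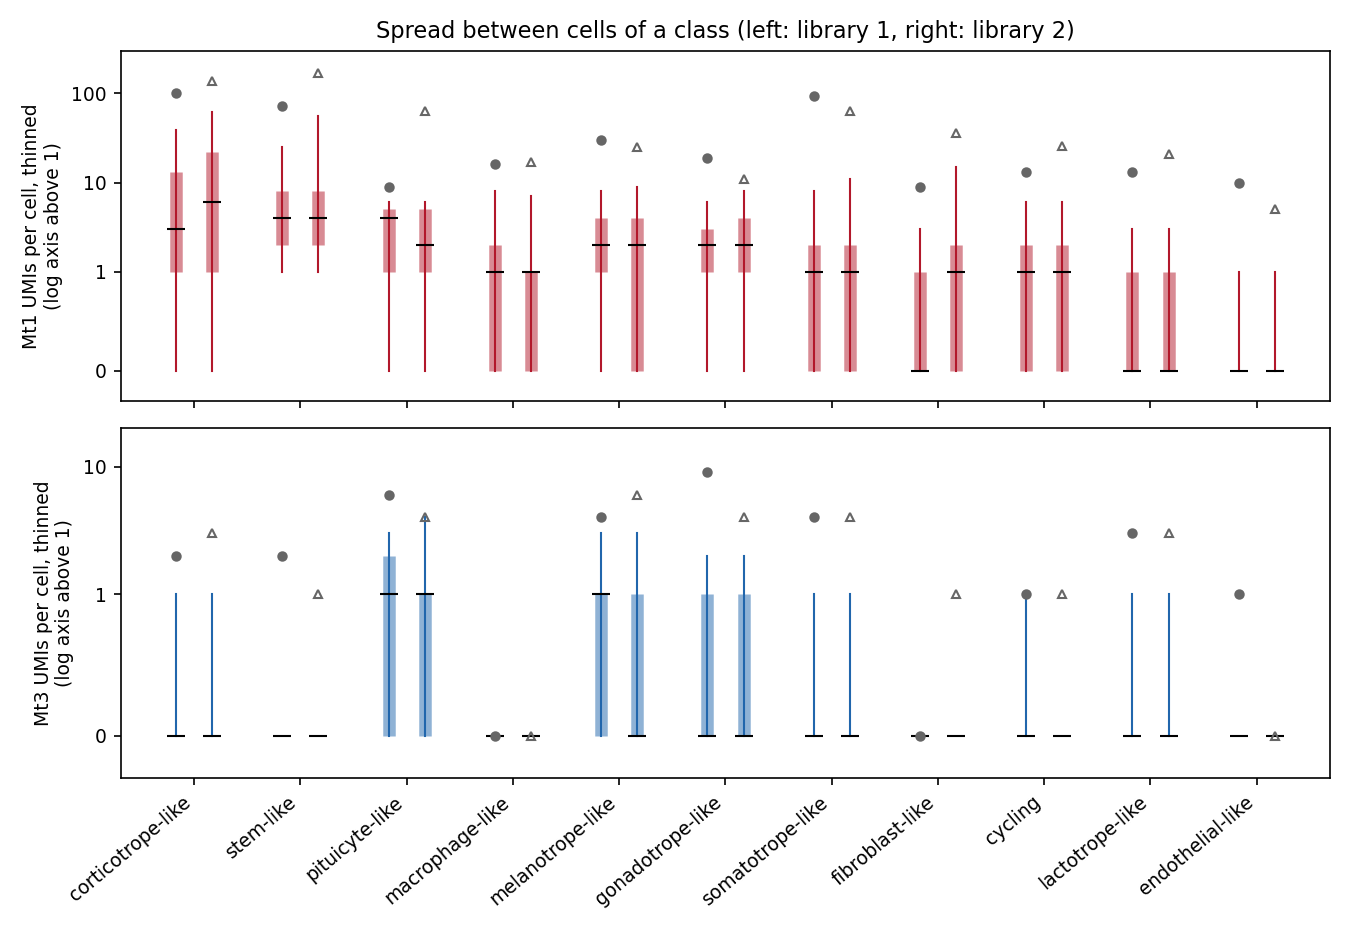
Thinned UMIs per cell of Mt1 (upper panel) and Mt3 (lower panel) in 11 classes, library 1 to the left and library 2 to the right of each name, on an axis that is logarithmic above 1. The black mark is the median, the thick bar spans the quartiles, the thin line the central 90% of cells, and the grey point is the highest cell. Medians stay at or below 6 UMIs whereas single cells reach 168.

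Inside a class, cells high in Mt1 were high in Mt2. On thinned counts, as log of 1 plus the UMIs, r was 0.73 and 0.78 in stem-like cells, 0.63 and 0.59 in corticotrope-like cells, 0.54 and 0.36 in melanotrope-like cells, 0.43 and 0.41 in somatotrope-like cells and 0.21 and 0.28 in lactotrope-like cells. Lactotrope-like cells had about 0.15 Mt2 UMIs per cell, where counting noise lowers any correlation. Mt1 and Mt2 together against Mt3 had r between -0.12 and 0.18 in the 5 hormone classes. Cells of a class share libraries and dissociation, and these values carry no test.

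One unnamed cluster of 136 cells, 69 and 67 per library, had Mt1 and Mt2 among its 10 leading genes beside the neuropeptide gene Cck, the granin gene Chga and the immediate early gene Npas4. Its Mt1 level was 3286 and 4164 CPM of the UMIs outside the hormone genes. Corticotrope-like cells had 5804 and 9577 on that scale and somatotrope-like cells 1386 and 1682. In 44.1% of its cells the growth hormone gene Gh held a large part of the UMIs. It stayed unnamed because 0 of its 10 leading genes were class markers, and it entered no comparison.

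Classes with high metallothionein levels were not simply those with high immediate early levels. Summed over 27 immediate early genes, macrophage-like cells had 10181 and 18823 CPM, corticotrope-like cells 10159 and 14110, stem-like cells 9615 and 11991, and endothelial-like cells 7614 and 7584. Endothelial-like cells nevertheless had the lowest Mt1 and Mt2, and pituicyte-like cells, with 489 and 1667 CPM of immediate early genes, had more Mt1 and Mt2 than endothelial-like cells in both libraries. Over the 22 sums, log2 Mt1 plus Mt2 against the immediate early sum had r of 0.13 (rho 0.16).

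**Figure D3:**
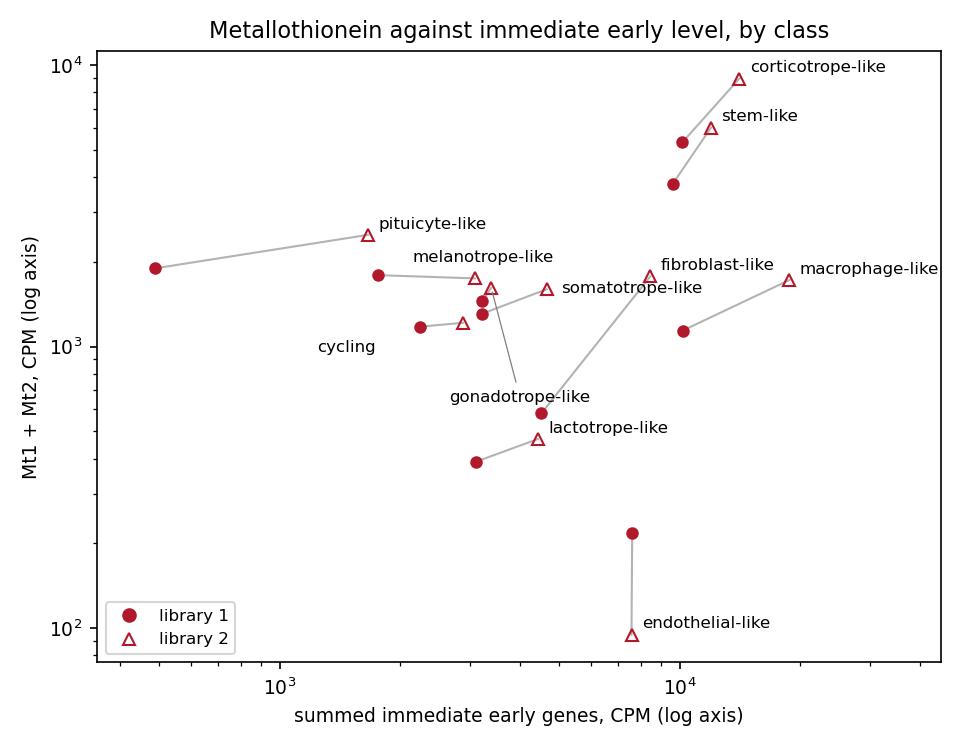
Summed Mt1 and Mt2 against summed immediate early genes, both in CPM on log axes, for 11 classes, with a circle for library 1 joined to a triangle for library 2. Corticotrope-like and stem-like cells are high on both axes, endothelial-like cells are high only on the x axis and pituicyte-like cells are low on the x axis with a high Mt1 plus Mt2.

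Inside corticotrope-like, somatotrope-like and stem-like cells, Mt1 and Mt2 did follow immediate early genes, whereas Mt3, at low counts in these classes, showed no rise. Cells were ranked by their thinned immediate early UMIs and split into terciles. In corticotrope-like cells, mean Mt1 per thinned cell went from 3.52 in the low tercile over 10.5 to 14.5 in the high one in library 1, and from 4.48 over 18.2 to 25.1 in library 2. High over low was 4.11-fold and 5.59-fold for Mt1 and 2.42-fold and 2.60-fold for Mt2. Mt2 was not graded, since its middle tercile exceeded the high one in both libraries, 3.76 against 3.61 UMIs and 6.46 against 5.79. In somatotrope-like cells Mt1 went from 0.972 over 1.20 to 4.04 and from 1.11 over 1.68 to 4.73, so most of the 4.15-fold and 4.25-fold difference lay between the middle and the high tercile. In stem-like cells the fold was 3.47 and 3.49, but in library 2 the middle tercile, at 19.1 UMIs, exceeded the high one at 10.7, so the relation was not graded there.

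The other hormone classes showed less of this relation. High over low for Mt1 was 1.56-fold and 1.37-fold in gonadotrope-like cells, 1.41-fold and 1.67-fold in lactotrope-like cells, and 0.786-fold and 1.38-fold in melanotrope-like cells, where the libraries go opposite ways. Cycling cells had 2.52-fold and 2.89-fold. Endothelial-like cells had 11.5-fold and 3.25-fold, on means that ran only from 0.0488 to 0.561 and from 0.0800 to 0.260 UMIs per cell. The terciles themselves differed in immediate early UMIs by up to 31.5-fold in these 8 classes, and least in melanotrope-like cells. Mt3 in the high tercile was between 0.389-fold and 1.32-fold of the low one in the 5 hormone classes. It was lower in both libraries in corticotrope-like (0.761-fold and 0.389-fold) and somatotrope-like cells (0.854-fold and 0.710-fold). Melanotrope-like cells had 0.991-fold, hardly a change, and 0.481-fold. Low and high tercile means in corticotrope-like cells were only 0.169 and 0.129 Mt3 UMIs per cell in library 1, and 0.157 and 0.0610 in library 2. A fall of Mt3 is not resolved from counting noise there. In gonadotrope-like and lactotrope-like cells the libraries went opposite ways. Stem-like cells had 0-fold and 0.333-fold, on very few Mt3 UMIs. Whether the folds differ between classes was not tested.

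**Figure D4:**
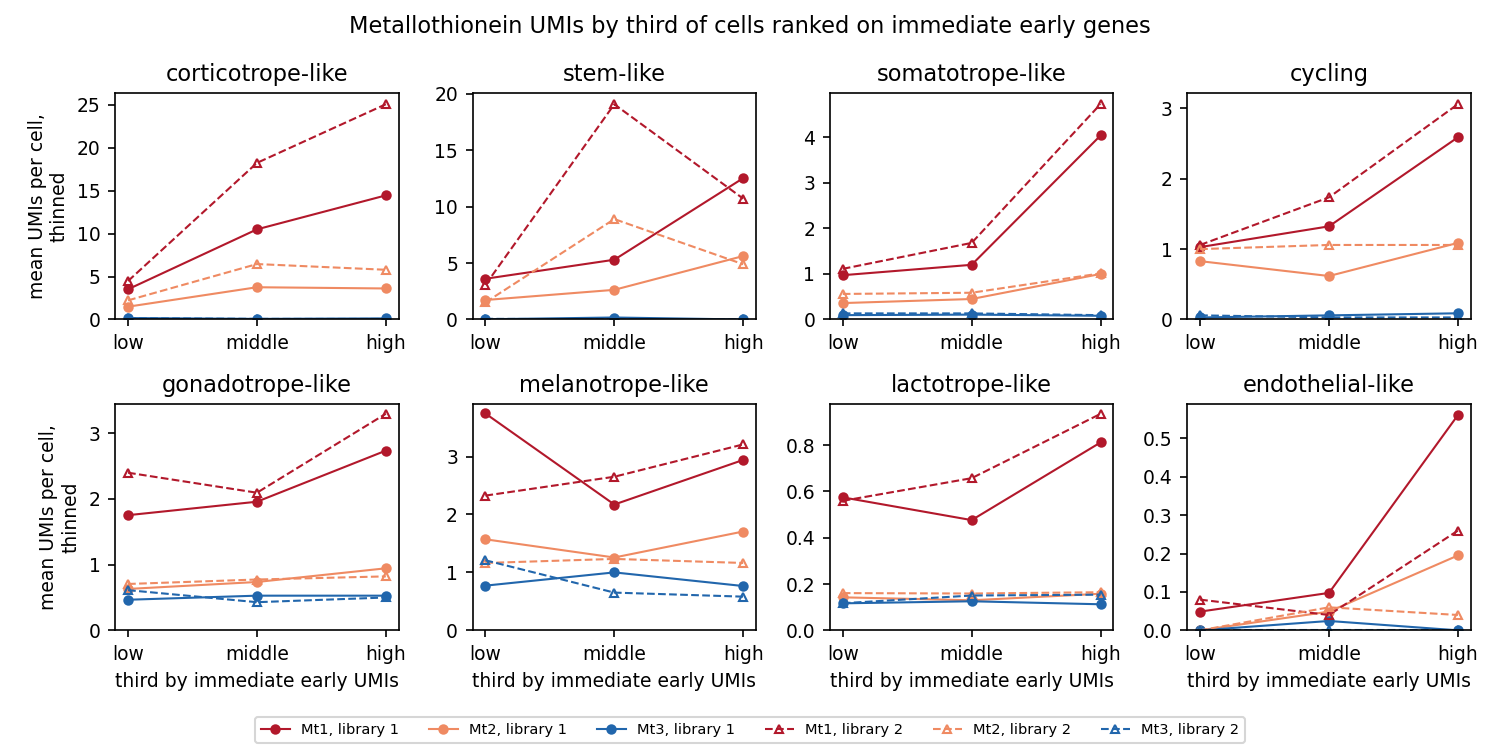
Mean thinned UMIs per cell of Mt1, Mt2 and Mt3 in the low, middle and high tercile of cells ranked on immediate early genes, in 8 classes, with solid lines for library 1, dashed lines for library 2 and an own y axis per class. Mt1 climbs 4.11-fold to 5.59-fold from low to high in corticotrope-like and somatotrope-like cells, and Mt3 stays near the bottom of these panels.

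Across single cells, r between Mt1 plus Mt2 and the immediate early sum was 0.37 and 0.46 in corticotrope-like cells (211 and 248 cells), 0.30 and 0.32 in somatotrope-like cells (3197 and 3311), and 0.28 and 0.32 in stem-like cells (152 and 141). It was 0.06 and 0.09 in lactotrope-like cells, which is too weak to read in counts this sparse, and -0.02 and 0.12 in melanotrope-like cells. The relation differed between the single early genes. In corticotrope-like cells r was 0.45 and 0.52 for Atf3, a stress-induced transcription factor, 0.37 and 0.57 for Jund, 0.28 and 0.41 for Junb and 0.28 and 0.39 for Fosb. For Fos itself it was 0.05 and -0.06, at means of 3.44 and 4.96 UMIs, and for the phosphatase gene Dusp1 0.12 and 0.06. In stem-like cells Maff had 0.33 and 0.57 and Jund 0.37 and 0.45, whereas Jun had 0.02 and -0.03 and Dusp1 -0.10 and -0.08. In somatotrope-like cells Jund had 0.30 and 0.32, Atf3 0.25 and 0.30, and Fos 0.15 and 0.17.

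Other measures of the cells moved along in part. In somatotrope-like cells the doublet score had r of 0.22 and 0.34 with Mt1 plus Mt2, and 0.47 and 0.33 with the immediate early sum. In corticotrope-like cells the same values were -0.17 and -0.29, and -0.29 and -0.32. In stem-like cells, depth outside the hormone genes had r of -0.32 and -0.21 with thinned Mt1 plus Mt2. The mitochondrial share had r of -0.02 and 0.05 with Mt1 plus Mt2 in corticotrope-like cells. Over classes, however, the median r of Mt1 plus Mt2 with immediate early genes was 0.15 in cells of low mitochondrial share, against 0.24 in all cells. The part of these measures in the relation was not tested.

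To see which other genes go with metallothioneins, cells of each class and library were ranked by thinned Mt1 plus Mt2, and the summed counts of the high and low terciles were compared by edgeR's quasi-likelihood test. All p-values were adjusted over 9553 genes (Benjamini-Hochberg). Mt1, Mt2 and the 27 listed immediate early genes were not tested. Genes off that list that can also respond early, such as Fosl1, Errfi1 and Per1, stayed in the test. Their calls are thus not separate from the relation to immediate early genes given above. With class and library as a block, p-values rest on how far the difference between terciles varied between the 2 pools, taken over 8 classes together. A p-value for a single class thus draws on the spread in the other classes. Averaged over the 5 hormone classes, 1.35% of genes were higher and 0.639% lower in metallothionein-high cells. In single classes, 3.33% were higher and 0.816% lower in corticotrope-like cells, 3.85% and 1.56% in somatotrope-like cells, and 5.01% and 1.44% in stem-like cells. Far fewer passed elsewhere: 0.178% and 0.325% in cycling cells, 0.126% and 0.0733% in endothelial-like cells, 0.105% and 0.0419% in gonadotrope-like cells, 0.0628% and 0.0105% in lactotrope-like cells, and 0.0105% and 0.0105% in melanotrope-like cells. In lactotrope-like and endothelial-like cells the low tercile had 0 Mt1 and Mt2 UMIs per cell and the middle one at most 0.255, so the ranking there separates few cells.

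Heat shock genes, which encode chaperones, were higher in metallothionein-high cells in all 3 of the classes with many calls. Of 12 tested genes, 6 rose and 0 fell in corticotrope-like cells, 10 and 0 in somatotrope-like cells, 8 and 0 in stem-like cells, and 6 and 0 over the hormone classes. The median log2 fold change of the list was 0.87, 0.72, 0.79 and 0.37 in that order, where the median of all genes lay between -0.05 and 0.00. Bag3, a co-chaperone, rose by a log2 fold change of 1.69 ± 0.28 (SE) in corticotrope-like cells, from 43.4 to 138 CPM, by 1.12 ± 0.09 in somatotrope-like and by 1.40 ± 0.28 in stem-like cells. Hspa8, the constitutive HSP70, rose by 1.17 ± 0.11, 0.67 ± 0.10 and 0.99 ± 0.11. With DESeq2, 6 heat shock genes passed in somatotrope-like cells, Bag3 not among them, and with cells ranked by Mt2 alone 0 passed over the hormone classes.

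Of 13 tested genes of the glucocorticoid response list, 5 rose and 1 fell in corticotrope-like cells, 7 and 0 in somatotrope-like cells, 5 and 0 in stem-like cells and 3 and 0 over the hormone classes. Errfi1, an inhibitor of EGF receptor signalling, rose by 3.37 ± 0.21 in corticotrope-like cells, from 39.6 to 404 CPM (adjusted p = 3.9e-30), and by 2.16 ± 0.12 in stem-like cells. Per1, a clock gene, rose by 2.36 ± 0.28 and 1.71 ± 0.22, and the transcription factor gene Klf9 by 1.76 ± 0.17 and 1.52 ± 0.14 in these classes. Members that did not pass included Fkbp5, a chaperone of the receptor, and Tsc22d3, a leucine zipper gene. Fkbp5 had 0.76 ± 0.36 (adjusted p = 0.31) and Tsc22d3 -0.51 ± 0.34 (adjusted p = 0.58) in corticotrope-like cells, and 0.13 ± 0.10 and 0.11 ± 0.08 in somatotrope-like cells. Nr3c1, the receptor gene, had -0.26 ± 0.19 (adjusted p = 0.64) in corticotrope-like cells. The gene that fell there was Ddit4, an mTOR inhibitor, by 0.86 on the log2 scale. With DESeq2, 1 gene of this list passed in somatotrope-like cells, and with ranking by Mt2 alone 0 passed over the hormone classes.

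Few zinc and copper genes passed, a share near that of all genes and so no result about these lists. Of 15 tested zinc genes, 0 passed in corticotrope-like cells and over the hormone classes, 1 rose in somatotrope-like cells and 1 in stem-like cells. These were Slc39a14, a zinc importer, with 0.61 ± 0.11 in somatotrope-like cells, and Slc39a1, another importer, with 0.77 ± 0.24 in stem-like cells. Slc30a1, the exporter that MTF1 also controls, had 1.80 ± 0.80 in corticotrope-like cells at 17.3 against 4.91 CPM (adjusted p = 0.26), and 0.24 ± 0.28 in somatotrope-like cells. Mtf1 itself had 1.22 ± 0.51 (adjusted p = 0.22) in corticotrope-like cells. Of 8 copper genes, the importer Slc31a1 alone rose, by 0.41 ± 0.11 in somatotrope-like cells. With DESeq2 neither Slc39a14 nor Slc31a1 passed there.

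Of 17 genes of the oxidative stress response, 3 rose and 2 fell in corticotrope-like cells, 1 and 0 in somatotrope-like cells, 4 and 0 in stem-like cells, and 1 and 2 over the hormone classes. Srxn1, which encodes sulfiredoxin, rose by 2.24 ± 0.24 in corticotrope-like cells, from 43.9 to 204 CPM, and by 0.63 ± 0.07 in somatotrope-like cells, where it did not pass with DESeq2. The ferritin genes Fth1 and Ftl1 rose in corticotrope-like and stem-like cells, by 0.30 to 0.91. Txn1, thioredoxin, and Prdx1, a peroxiredoxin, fell in corticotrope-like cells by 0.86 and 0.44 on the log2 scale.

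**Figure D5:**
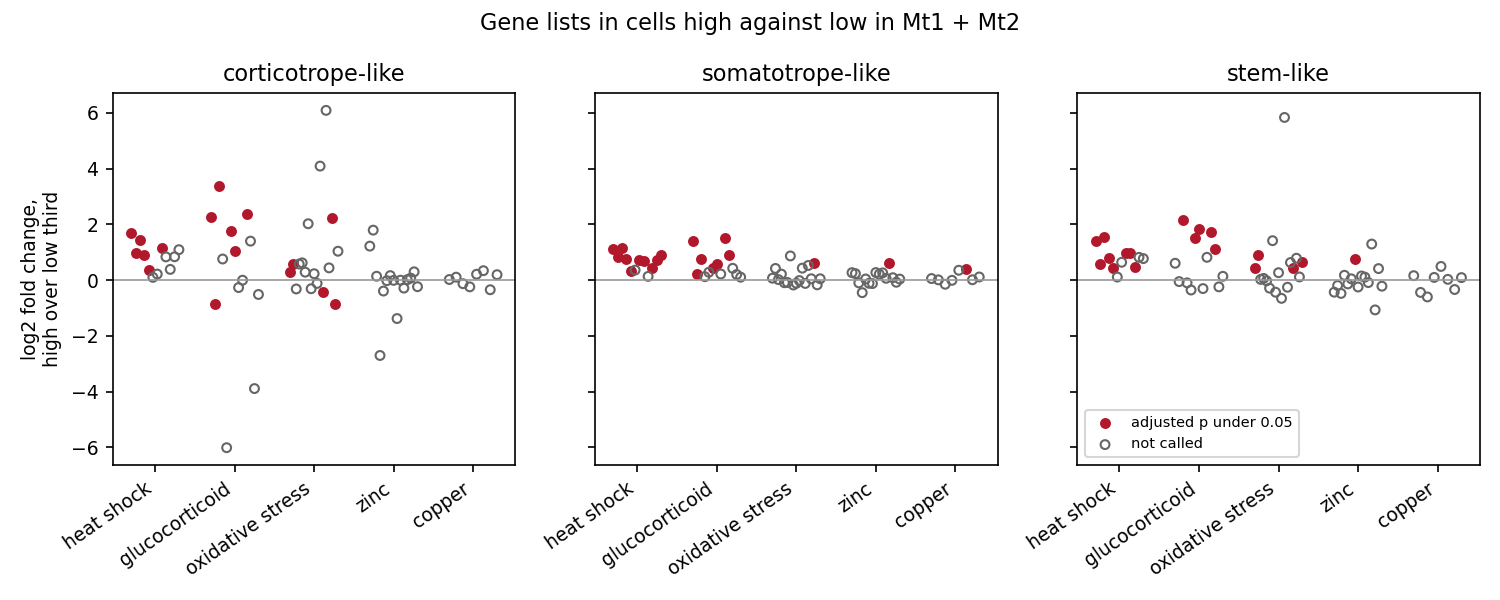
Log2 fold changes of the high over the low Mt1 plus Mt2 tercile for the tested genes of 5 lists in 3 classes, with filled red points for an adjusted p under 0.05 and open points otherwise. Heat shock genes lie above 0 in all 3 panels, and zinc and copper genes scatter around 0. The open points farthest from 0 are genes with few UMIs.

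Among single genes, Bhlhe40 (1.22 ± 0.25), a transcriptional repressor of the clock, led the genes higher over the hormone classes. Errfi1 (1.20), Ifrd1 (1.10), Gem (1.07), Nfil3 (1.05), Gadd45b (1.04) and Ddit3 (0.98) followed, the last being the stress transcription factor CHOP. Ndufa4, a subunit of the respiratory chain, fell by 0.43 on the log2 scale over the hormone classes and by 1.52 in corticotrope-like cells, from 390 to 136 CPM. In corticotrope-like cells Irs2, an insulin receptor substrate, rose by 4.40 ± 0.39 from 6.51 to 145 CPM, and Socs3, a cytokine signalling inhibitor, by 4.05 ± 0.36. Klf2, Arid5a, Tgif1, Nptx2, Chac1, Sgms2 and Map3k8 rose there by 3.19 to 4.00. In somatotrope-like cells Ddit3 rose by 1.78 ± 0.07, and Idi1, Hmgcs1 and Cyp51, which encode enzymes of sterol synthesis and were put side by side after their values were seen, by 1.21 to 1.63. In stem-like cells Hbegf, a ligand of the EGF receptor, rose by 5.06 ± 0.57 and Fas, a death receptor, by 4.07 ± 0.27. Fosl1, an AP-1 subunit outside the immediate early list, rose there by 3.94 ± 0.46.

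Markers of other cell types differed between some terciles. In somatotrope-like cells, Tshb, the thyrotropin subunit, had 160 and 101 CPM of the UMIs outside the hormone genes in the high tercile and 1105 and 2474 in the low one, and it fell by 3.65 on the log2 scale. The other 2 thyrotrope markers there summed to 7.94 and 7.33 against 15.03 and 23.1, with 1 of them at 0 in the high tercile of library 1. Low-tercile endothelial-like cells had 30698 and 16863 CPM of the 5 erythroid markers against 2468 and 506 in the high tercile, where 0 and 2 markers were at 0. Low-tercile cycling cells had 826 and 517 of the 7 fibroblast markers against 66.9 and 112, with 6 and 2 of the 7 at 0 in the high tercile. In stem-like cells the low tercile had 552 and 231 of 5 gonadotrope markers against 225 and 9.98, with 1 and 3 of the 5 at 0 in the high tercile. The high tercile there had 130 and 69.9 of 6 mural markers, with 3 at 0 in each library, against 43.5 and 3.56. It was also shallower, with 6696 and 7308 UMIs outside the hormone genes against 10534 and 10478. Their part in the calls was not tested.

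Mt3, itself a member, is given here as a description with no test. In stem-like cells it was 46.9 CPM in the high and 18.4 CPM in the low tercile, a log2 fold change of 1.34 that became 0.14 when cells were ranked by Mt2 alone. Over the hormone classes it was 163 against 179 CPM, and in corticotrope-like cells 30.1 against 51.1 CPM.

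The same lists were then compared between classes, each class against the equally weighted mean of the other 10 on the log2 scale, over 12402 genes. Such a mean lies below the arithmetic mean CPM when a gene is high in few classes, so a gene can be called higher and still lie below the mean CPM of the others. In corticotrope-like cells 22.6% of all genes were higher and 10.3% lower. Of 14 glucocorticoid response genes 8 were higher and 2 lower there. Among the higher were Cdkn1a at 2.77 ± 0.14, Errfi1 at 2.55 ± 0.22, Nr3c1 at 2.01 ± 0.12 and Klf9 at 1.89 ± 0.12. The 2 lower ones were Tsc22d3 at -0.94 ± 0.14 and Hsd11b1 at -1.95 ± 0.61. Of 12 heat shock genes 10 were higher and 0 lower. Zinc genes had 1 higher and 4 lower of 17, copper genes 2 and 2 of 9, and oxidative stress genes 3 and 4 of 17. Slc39a1, a zinc importer, was lower by 1.53 ± 0.22, with 17.4 and 9.57 CPM against a mean of 47.0 in the other classes. It was also lower in gonadotrope-like (22.5 and 11.9 CPM), somatotrope-like (23.1 and 13.9), lactotrope-like, cycling and melanotrope-like cells. Stem-like cells, next in Mt1, had 59.6 and 43.8 CPM and were called higher. So were pituicyte-like, macrophage-like, fibroblast-like and endothelial-like cells.

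In stem-like cells 30.7% of all genes were higher and 14.1% lower. The glucocorticoid list had 11 higher and 1 lower of 14, led by Hsd11b1, which regenerates active glucocorticoid, with 274 and 294 CPM and a log2 fold change of 6.09 ± 0.12. Fibroblast-like cells had more Hsd11b1, with 705 and 575 CPM and a log2 fold change of 7.37 ± 0.15. Of the 11, Nfkbia (143 and 181 CPM against a mean of 237) and Sgk1 (37.1 and 41.5 against 49.7) lay below the arithmetic mean of the other classes. The oxidative stress list had 9 higher and 1 lower of 17, among them Gclc, the rate-limiting enzyme of glutathione synthesis, at 3.23 ± 0.12, and Txnrd1, thioredoxin reductase, at 1.82 ± 0.13. The heat shock list had 7 and 1 of 12. The zinc list was even, with 3 and 3 of 17, but held the zinc importer gene Slc39a12 with 45.9 and 67.1 CPM against a mean of 2.03. Copper genes had 3 and 2 of 9.

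Melanotrope-like and pituicyte-like cells, the classes with the most Mt3, had other patterns. In melanotrope-like cells, with 18.8% of all genes higher and 8.59% lower, 0 of 14 glucocorticoid genes were higher and 9 lower, Nr3c1 by 2.31 ± 0.30 with 9.56 and 7.996 CPM, and 0 of 12 heat shock genes were higher and 11 lower. Zinc genes had 1 and 1 of 17, copper genes 2 and 4 of 9, and oxidative stress genes 0 and 6 of 17. In pituicyte-like cells, with 9.81% higher and 4.98% lower, 4 of 17 zinc genes were higher and 0 lower, Slc39a1 at 1.97 ± 0.24 with 100 and 120 CPM and the transporter gene Slc30a5 at 1.65 ± 0.31 among them. Heat shock genes had 0 higher and 10 lower of 12, with Hspa1a lower by 3.05 ± 0.29. Glucocorticoid genes had 1 and 1, oxidative stress genes 1 and 3, and copper genes 0 and 0. These traits were not particular to the 2 classes. Nr3c1 was lower still in lactotrope-like cells, by 4.11 ± 0.18 with 2.55 and 3.00 CPM. Hspa1a was also lower in gonadotrope-like cells, the next class in Mt3, by 1.64 ± 0.20.

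Endothelial-like cells, lowest in Mt1 and Mt2, did not lack these lists. With 27.1% of all genes higher and 16% lower, 8 of 14 glucocorticoid genes were higher and 1 lower, 10 of 12 heat shock genes higher and 1 lower, and 7 of 17 oxidative stress genes higher and 2 lower. Among these, Hsd11b1, with 10.6 and 11.2 CPM against an arithmetic mean of 95.7, and Ftl1 and Hmox1 were called higher on the log2 scale while lying below that mean. Zinc genes had 3 and 3 of 17. Of the copper genes 3 were higher and 1 lower of 9, with Atox1, a copper chaperone, at 987 and 1059 CPM and a log2 fold change of 2.25 ± 0.07.

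By correlation of log2 CPM over the 22 sums among 4977 genes, the pattern most like that of Mt1 plus Mt2 was that of Irs2 (r = 0.88), followed by Usp2, a ubiquitin protease gene (0.85), Bhlhe41, a clock repressor gene (0.83), Cadm1 (0.80), Fam213a (0.78), Ppp1r1a (0.72), Sp3os (0.71), Slc27a1 (0.70), Naaa (0.69) and Chchd10 (0.69). Irs2 was highest in stem-like cells with 83.0 CPM and in corticotrope-like cells with 62.2. For Mt3, among 4978 genes, they were Ndufb2 (0.94) and Ndufb3 (0.89), subunits of respiratory complex I, Nfasc (0.90), a cell adhesion gene, Kif1a (0.89), a motor of vesicle transport, and Cacna2d2 (0.87), a calcium channel subunit. With 11 classes and 2 libraries that share them, these values order genes and support no further reading.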

How the data were processed

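Raw UMI counts per gene and cell were deposited by the authors, who used Cell Ranger with STAR and the mm10 assembly per the submitters' processing notes. The sources used here give no versions. The number at the end of a barcode was taken as the pool. Kept barcodes had a minimum of 500 UMIs and 250 genes and a mitochondrial share of no more than 20%. The 7.6% with the highest doublet scores, 494 and 537 cells, were removed. Clustering used 100 marker genes (scanpy 1.11.5, leidenalg 0.10.2) and classes were named from at least 3 markers. Depth was 70813117 and 78861988 UMIs, a median of 10128 and 10636 per barcode.

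Counts were summed per class and library, or per class, library and tercile of thinned Mt1 plus Mt2, and tested with edgeR 4.0.16 (quasi-likelihood, TMM, Benjamini-Hochberg at 0.05, R 4.3.3), with library, or class and library, as a block. There were 22 and 32 sums and 10 and 8 residual degrees of freedom. Classes needed 20 cells per library, and 60 for terciles. DESeq2 1.42.0 was an alternative. Scripts were tested on simulated counts. Named genes passed with the same sign in both libraries and at least 50 CPM, the 10 highest and 5 lowest by log2 fold change, and correlates were the 10 or 5 highest. Not all of these are printed. The members, lists and tests were chosen with earlier results of these data known, and the thinning to 1500 UMIs and the limits for mixed clusters were set after the data were seen.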

Additional observations from a re-analysis of the deposited data

How the results depend on the processing

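Class levels kept their direction under both other scalings, other clusterings, kept doublets and each library alone, apart from the 6 values given next. Leiden resolution 0.5 gave no pituicyte-like class and so no value for it. As log2 level minus the mean of the other classes, Mt1 in macrophage-like cells became -0.23 on UMIs outside the hormone genes, and in somatotrope-like cells -0.57 with clustering on variable genes. Mt2 in somatotrope-like cells became -0.0298 with doublets kept and -0.14 with variable genes, and Mt3 -0.10 in corticotrope-like and -0.0598 in somatotrope-like cells with doublets kept. Larger values moved by more than their spread. With doublets kept, Mt1 in stem-like cells went from 1.81 to 1.51, Mt2 from 2.65 to 2.20, and Mt3 to 2.41 in gonadotrope-like (from 2.94), 3.36 in melanotrope-like (from 3.89) and 3.21 in pituicyte-like cells (from 3.75). At Leiden resolution 0.5 Mt3 had 3.30 in gonadotrope-like and 4.31 in melanotrope-like cells, on UMIs outside the hormone genes 3.98 in melanotrope-like and 4.02 in pituicyte-like cells, and with variable genes 3.99 in melanotrope-like cells. The median r of Mt1 plus Mt2 with immediate early genes over classes, 0.24, was 0.19 with 8 early genes, 0.20 as Spearman rho, 0.18 with 750 UMIs and 0.15 in cells of low mitochondrial share. The median excess CV² of 2.65 was 1.92 with 750 UMIs. With ranking by Mt2 alone the number of genes apart between terciles fell from 190 to 31 over the hormone classes, 396 to 89 in corticotrope-like, 517 to 109 in somatotrope-like and 617 to 364 in stem-like cells. The list genes over the hormone classes then had no calls. A split at the median gave 125 over the hormone classes and 373 in stem-like cells, and DESeq2 gave 109 in somatotrope-like cells. There, 1 glucocorticoid and 6 heat shock genes passed with DESeq2, against 7 and 10. The split of higher and lower genes moved by over 10 points for pituicyte-like cells, 1217 and 617 against 1515 and 346 with DESeq2, for stem-like terciles, 479 and 138 against 417 and 53 with DESeq2, and over the hormone classes, 129 and 61 against 99 and 26 with a split at the median, 139 and 30 by Mt1 alone and 14 and 17 by Mt2 alone. Of 750 values of named and list genes between terciles, 627 kept direction and call, 122 lost the call and 1, Ddit4 in somatotrope-like cells by Mt2 alone (-0.0216), changed sign. Of 510 between classes, 493 kept both and 17 lost the call. A single library allows no test, so no count could be made without either one. Low counts limit Mt3 outside the 3 leading classes and all members in endothelial-like cells.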
